A study of Zea mays with 6 samples.

Results

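Transcripts of 3 genes of plastid isoprenoid synthesis were followed in maize roots: dxr (GRMZM2G056975), psy2 (GRMZM2G149317) and Ent-CPS (GRMZM2G081554, symbol an1 in the RefSeq gene table). They were picked by their gene identifiers from an earlier comparison of the same 6 arrays in which transcripts of all 3 were lower, so the values below describe the choice and carry no test. They account for 3 of the 39219 genes on the array, for 9 of its 59756 transcripts (2 of dxr, 3 of psy2 and 4 of Ent-CPS) and for 23 of its 139000 transcript probes. All 9 transcripts are reported, and no filter on dim signals was applied to them.

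The study set roots of Fe-deficient maize (Zea mays, cv. PR33T56, an inbred line by the study's methods) against roots of Fe-sufficient plants. The plants of the Fe-deficient group were kept without Fe-EDTA, a soluble iron chelate, for the last 7 d, and those of the Fe-sufficient group received 100 µM Fe-EDTA over the same 7 d. All plants had spent the preceding 7 d in a solution free of Fe and were 19 d old at harvest. Each array held RNA pooled from 6 plants, and 3 arrays per group came from independent cultivations.

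Plastids build all their isoprenoids from isopentenyl diphosphate, which the methylerythritol phosphate (MEP) pathway supplies. The reductoisomerase encoded by dxr makes methylerythritol phosphate, the compound that gives the pathway its name, from the product of 1-deoxyxylulose 5-phosphate synthase (DXS). Geranylgeranyl diphosphate made from these units enters carotenoid synthesis through phytoene synthase, the enzyme of psy2, or diterpenoid and gibberellin synthesis through ent-copalyl diphosphate synthase, the enzyme of Ent-CPS. Carotenoids are in turn the source of abscisic acid and strigolactones, and mutants of the maize an1 locus (anther ear1) are gibberellin-deficient dwarfs.

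Not every array stood with the others of its label. Fe-sufficient 1 had a median correlation of 0.957 with the other Fe-sufficient arrays and of 0.976 with the Fe-deficient ones, whereas each of the other 5 arrays was closer to its own group. Of 5 genes of iron acquisition and storage named by the study, 0 passed in limma (lowest adjusted p = 0.491, and 0 at an unadjusted p of 0.05). Each was read in its transcript of highest mean. The study lists transcripts of the phytosiderophore genes TOM1, NAS and DMAS as higher in Fe-deficient roots at its thresholds. Those calls were not reproduced in the transcripts read here. TOM1, the phytosiderophore exporter, had log2 intensities of 12.61, 11.14 and 12.59 on the Fe-deficient arrays and of 8.49, 13.51 and 12.52 on the Fe-sufficient arrays. Ferritin, the iron storage protein, was at 13.23, 13.26 and 13.27 on the Fe-deficient arrays and at 13.96, 13.23 and 13.22 on the Fe-sufficient arrays. For both genes Fe-sufficient 1 stood away from the other 5 arrays, with the lowest TOM1 and the highest ferritin. The study reports TOM1 higher and ferritin lower in Fe-deficient roots. In TOM1 and ferritin Fe-sufficient 1 thus had the pattern of its label, while Fe-sufficient 2 and 3 lay with the Fe-deficient arrays. NAS and DMAS were also lowest on Fe-sufficient 1, at 8.17 and 12.69. YS1, an uptake transporter gene that the study's PCR found higher in Fe-deficient roots, did not share this pattern. It was at 11.08, 10.90 and 10.86 on the Fe-deficient arrays and at 11.34, 11.81 and 11.11 on the Fe-sufficient arrays. Every Fe-sufficient value of YS1 was thus the higher, the reverse of the study. Values without Fe-sufficient 1 show dependence on that array and are no corrected contrast. "Fe-deficient" and "Fe-sufficient" therefore mean arrays so labelled, and results that rest on Fe-sufficient 1 are given with and without it. The arrays of each group also lay side by side on 1 slide, so position and group cannot be told apart. Of root markers, the root hair gene rth3 was above background on all 6 arrays.

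Every one of the 9 transcripts had a lower mean on the Fe-deficient arrays, and for 8 of them the values of the groups did not overlap. In RNA of whole roots, fewer cells of a type and less RNA per cell cannot be told apart. Over all transcripts of the array, 7.65% were lower without overlap. At the study's thresholds (limma, adjusted p no larger than 0.05 with at least a 1.5-fold change) 5 of the 9 transcripts passed, namely 1 of dxr, 2 of psy2 and 2 of Ent-CPS. The same thresholds passed 0.0853% of all transcripts (51) in either direction and 0.0151% (9) as lower. Since the genes were chosen from this contrast, nothing is read from the counts of members. The study reports far more transcripts in each direction at these thresholds, so its totals were not reproduced here. The median log2 difference, Fe-deficient minus Fe-sufficient, was -1.20 for dxr, -1.58 for psy2 and -2.48 for Ent-CPS, against 0.01 over all transcripts. With Ent-CPS T05 and T06, which were above background on no Fe-deficient array, set to their bounds (0 for T05), the Ent-CPS median was -2.11. The dxr and Ent-CPS medians still hold fitted values of dxr T02 and Ent-CPS T03. Most probes of these transcripts were below background on the Fe-deficient arrays, so both medians are no measured sizes. Without Fe-sufficient 1 the medians of the fitted values were -1.03, -1.68 and -2.84 in the same order, against 0.04, and 6 of the 9 transcripts passed, as did 1.56% of all transcripts as lower. Without any other single array 0 passed, although all 9 differences kept their sign.

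**Figure D1:**
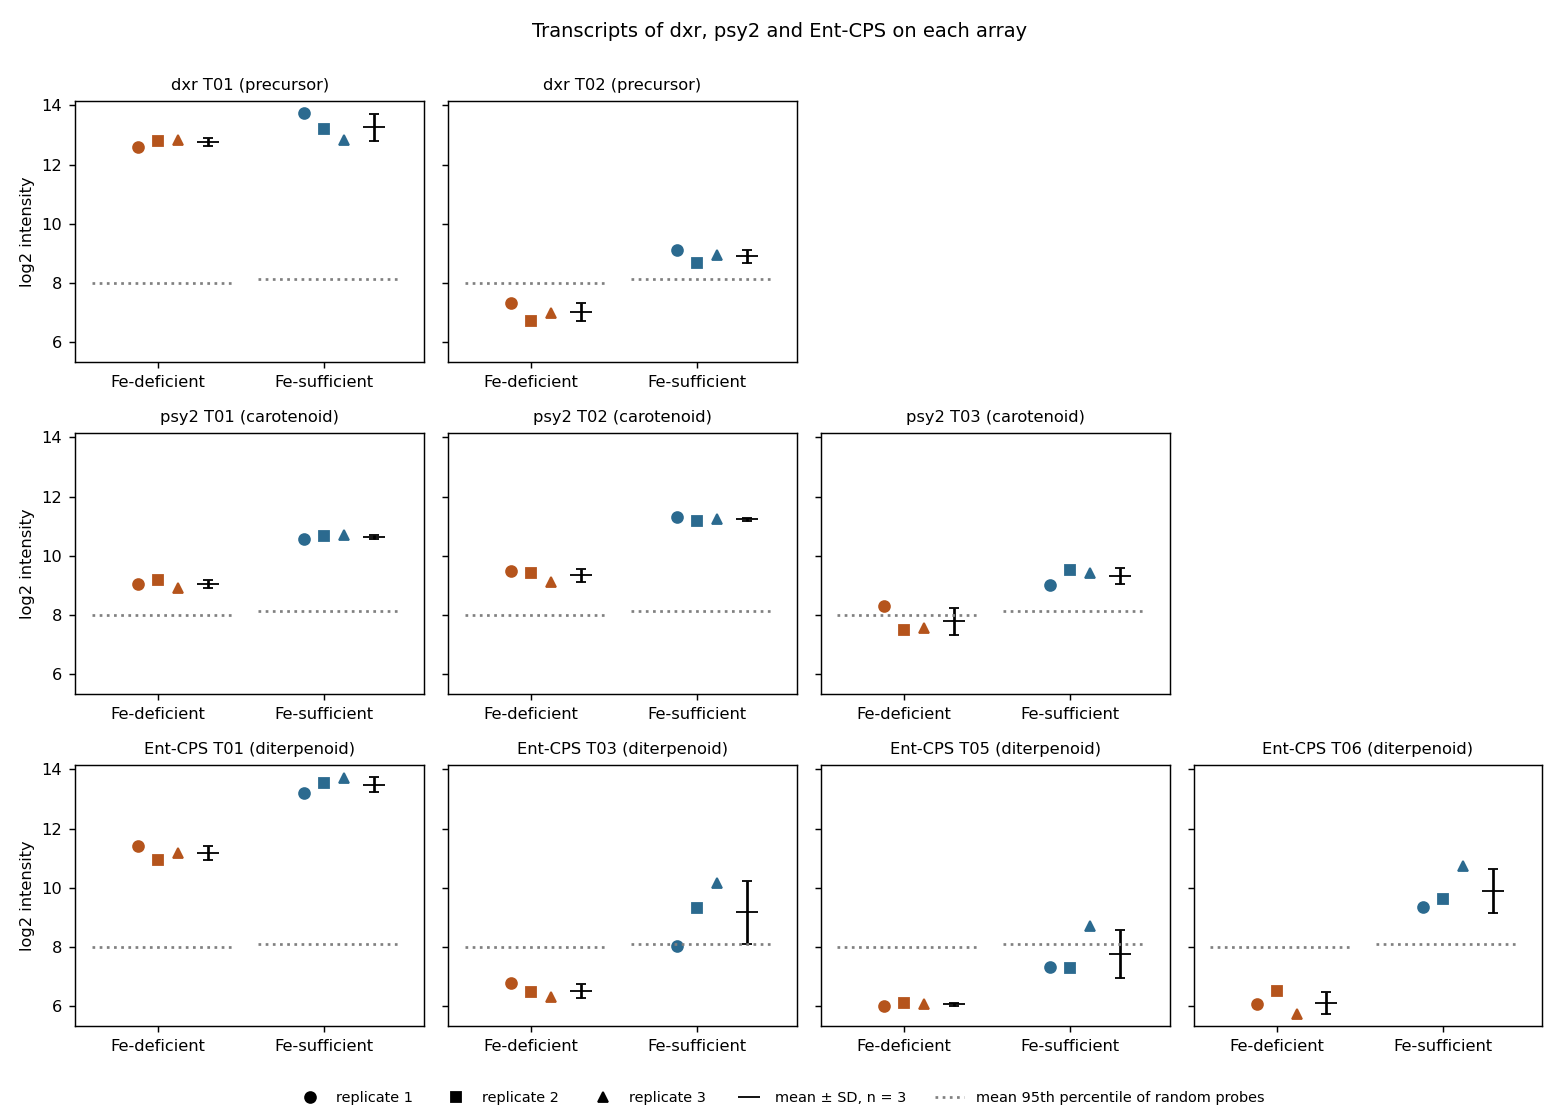
Log2 intensity (vertical axis) of each transcript of dxr, psy2 and Ent-CPS on the 3 arrays labelled Fe-deficient (left in each panel) and the 3 labelled Fe-sufficient (right), with the mean ± SD of each group and a dotted line at the mean 95th percentile of random-sequence control probes. The groups overlap only in dxr T01, and all Fe-deficient values of dxr T02 and of Ent-CPS T03, T05 and T06 lie below the dotted line.

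At the precursor step, the brighter transcript of dxr overlapped between the groups and the dimmer one was several-fold lower. Transcript T01 of dxr had log2 intensities of 12.61, 12.81 and 12.84 on the Fe-deficient arrays and of 13.73, 13.21 and 12.83 on the Fe-sufficient arrays. Fe-sufficient 3 lay inside the Fe-deficient range and Fe-sufficient 1 was the brightest, so the groups overlapped. Its probes at positions 1572, 1691 and 1841 differed by -0.46, -0.88 and -0.40, and only that at position 1691 was without overlap. The means were 12.75 ± 0.13 on Fe-deficient arrays and 13.26 ± 0.45 on Fe-sufficient arrays (SD, n = 3 each), a log2 difference of -0.51 (1.42-fold lower on the Fe-deficient arrays), which was -0.27 (1.20-fold) without Fe-sufficient 1.

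Transcript T02 of dxr was at 7.34, 6.72 and 7.00 on the Fe-deficient arrays and at 9.10, 8.66 and 8.96 on the Fe-sufficient arrays. All 3 Fe-deficient values were below all 3 Fe-sufficient values, with a gap of 1.32 between the groups. The means of 7.02 ± 0.31 on Fe-deficient and 8.91 ± 0.22 on Fe-sufficient arrays (SD, n = 3 each) gave a log2 difference of -1.89 in the fitted values. Those values follow a dim probe on the Fe-deficient arrays, where only 1 of the 3 probes exceeded background, so they give no fold change. The probe above background, at position 1560 of the transcript, had a log2 difference of -1.62 (3.07-fold lower). The probe at position 1634, above background on no Fe-deficient and 2 Fe-sufficient arrays, gives no fold change. The probe at position 1637, above background on no Fe-deficient but on all 3 Fe-sufficient arrays, was at least 1.96-fold lower on the Fe-deficient arrays. Such a bound sets the mean of the brighter group against the lowest signal above background on each dim array, or the probe's own value where higher. A probe is above background where it exceeds 95% of the random probes of its array, and a transcript where 1 or more of its probes is.

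At the entry into carotenoid synthesis, all 3 transcripts of psy2 were lower, by amounts that differed between their probes. Transcript T02, the brightest, was at 9.49, 9.41 and 9.11 on the Fe-deficient arrays and at 11.30, 11.18 and 11.23 on the Fe-sufficient arrays. The groups were apart by 1.69, more than the whole range within either. Means of 9.34 ± 0.20 on Fe-deficient and 11.24 ± 0.06 on Fe-sufficient arrays (SD, n = 3 each) gave a log2 difference of -1.90 (3.73-fold lower), and Fe-sufficient 1 lay with the other arrays of its label.

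Transcript T01 of psy2 had values of 9.06, 9.20 and 8.93 on the Fe-deficient arrays and of 10.57, 10.68 and 10.70 on the Fe-sufficient arrays. Again no value of either group fell within the range of the other. The log2 difference was -1.58 (3.00-fold lower), from 9.07 ± 0.13 on Fe-deficient and 10.65 ± 0.07 on Fe-sufficient arrays (SD, n = 3 each). Its probes at positions 164 and 1488 differed by -1.24 and -1.93, and those of T02 at positions 653 and 1607 by -1.76 and -2.03. Transcript T03 was dimmer and more variable, at 8.32, 7.51 and 7.56 on the Fe-deficient arrays and at 9.01, 9.52 and 9.43 on the Fe-sufficient arrays. Its groups were also apart, by 0.70, but the log2 difference of -1.53 did not pass the thresholds. That value averages the probe at position 1069, which differed by -2.47 (5.53-fold lower), with the probe at position 1, which was above background on no array of either group and gives no measurement.

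At the entry into diterpenoids, Ent-CPS had the lowest median difference of the 3 genes in the fitted values. Transcript T01, the brightest, was at 11.40, 10.95 and 11.17 on the Fe-deficient arrays and at 13.21, 13.54 and 13.72 on the Fe-sufficient arrays. The groups were 1.81 apart, and Fe-sufficient 1 was the lowest of its group. The means were 11.17 ± 0.23 on Fe-deficient and 13.49 ± 0.26 on Fe-sufficient arrays (SD, n = 3 each), a log2 difference of -2.32 (4.98-fold lower), or -2.46 (5.49-fold) without Fe-sufficient 1. Its probes at positions 1331 and 2058 gave -2.31 and -2.32. T01 was the only Ent-CPS transcript with every probe above background on all 6 arrays.

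Transcript T06 of Ent-CPS was at 6.07, 6.52 and 5.76 on the Fe-deficient arrays, above background on none of them, and at 9.35, 9.62 and 10.75 on the Fe-sufficient arrays, above background on all. The means were 6.12 ± 0.38 on Fe-deficient and 9.91 ± 0.74 on Fe-sufficient arrays (SD, n = 3 each). As the Fe-deficient signals had only an upper limit, T06 was at least 3.75-fold lower there. All 3 of its probes had such a bound, of at least 4.48-fold at position 2114, at least 3.41-fold at 2141 and at least 3.18-fold at 2462.

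The remaining Ent-CPS transcripts varied among the Fe-sufficient arrays. Transcript T03 was at 6.78, 6.50 and 6.31 on the Fe-deficient arrays and at 8.05, 9.33 and 10.17 on the Fe-sufficient arrays. The groups were apart, yet the Fe-sufficient values spread widely (SD 1.07 against 0.24 on Fe-deficient arrays), and the fitted values passed the thresholds only when Fe-sufficient 1 was left out or arrays were weighted by their fit. Only the probe at position 1 was above background on the Fe-deficient arrays, and it differed by -2.02 (4.05-fold lower), or by -2.57 without Fe-sufficient 1. The probes at positions 135 and 250 were at least 2.65-fold and at least 2.30-fold lower. Transcript T05 was at 6.02, 6.13 and 6.08 on the Fe-deficient arrays, above background on none, and at 7.33, 7.29 and 8.71 on the Fe-sufficient arrays, above background on 2 of 3. Its signal was too close to background for a fold change.

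Across the probes, 23 of 23 were lower on the Fe-deficient arrays, compared with 66872 of all 139000. In 20 of the 23 the groups did not overlap (4 of 6 for dxr, 5 of 6 for psy2 and 11 of 11 for Ent-CPS), against 7.6% of all probes that were lower without overlap. The rule chose the genes on these same intensities, so the counts describe the members only. The exceptions were the dxr T01 probes at positions 1572 and 1841 and the dim psy2 T03 probe at position 1. Above background on no Fe-deficient array were 11 probes, 8 of them of Ent-CPS, and 12 were above background on all 6 arrays.

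**Figure D2:**
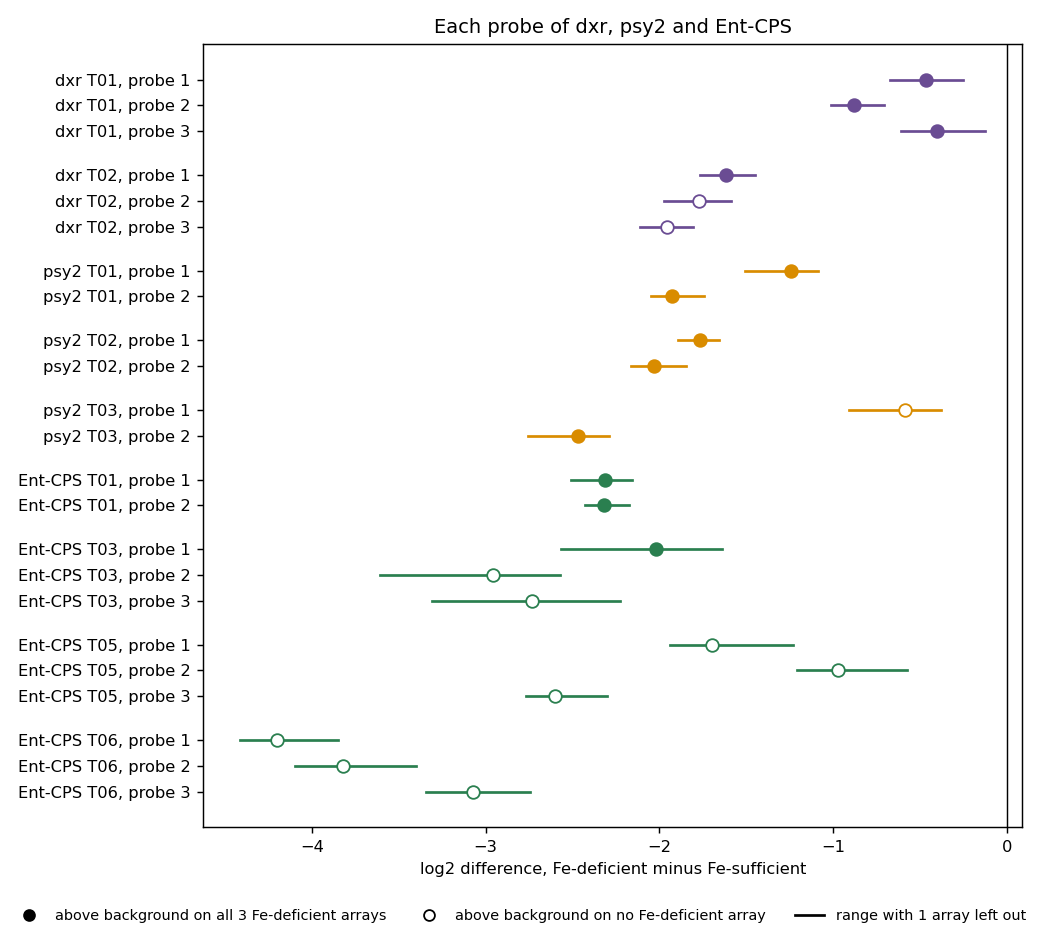
Log2 difference (horizontal axis, arrays labelled Fe-deficient minus arrays labelled Fe-sufficient) of each of the 23 probes in the order of their positions, with lines for the range when 1 array at a time is left out and open circles for probes above background on no Fe-deficient array. All 23 points and lines lie below 0. An open circle shows measured signals, of which at most a bound on the difference can be read, and the filled circles run from -2.47 for the second psy2 T03 probe to -0.40 for the third dxr T01 probe.

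The isoforms of a gene were then compared within each array, which removes what an array adds to both. For dxr the T02 probe above background, at position 1560, was used. Its gap to T01 was -3.85, -4.47 and -4.16 on the Fe-deficient arrays and -3.19, -3.30 and -2.66 on the Fe-sufficient arrays. It was wider on each Fe-deficient array than on any Fe-sufficient array, and its log2 difference of -1.11 lay between -1.27 and -0.92 with 1 array left out at a time. The probes of T01 differed by -0.88 to -0.40, so the size of this gap depends on the T01 probe used. For psy2, T01 minus T02 was -0.43, -0.21 and -0.18 on the Fe-deficient arrays and -0.72, -0.50 and -0.53 on the Fe-sufficient arrays, a small difference of 0.31 without overlap. The probes of T01 themselves differed by -1.24 and -1.93, so this gap is not assigned to the isoforms. The gap of T03 to T02 overlapped between the groups. In Ent-CPS the transcripts T03, T05 and T06 had all or most probes below background on the Fe-deficient arrays, so their gaps to T01 give no difference between the groups. The sizes of the gaps themselves have no meaning as relative amounts, because brightness differs between probes, and isoforms that share exons can bind each other's probes.

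Profiles over the 6 arrays were also set against each other, each centred on its own mean, by their root mean square (RMS) distance on the log2 scale. Within psy2, T01 and T02 were 0.190 apart, and a probe of T01 (position 1488) and a probe of T02 (position 1607) only 0.0620. Between genes, dxr T02 lay 0.212 from psy2 T02 and 0.324 from Ent-CPS T01, and psy2 T02 lay 0.314 from Ent-CPS T01. The dxr transcripts T01 and T02 were 0.772 apart. Distances of dxr T02 use fitted values that lie below background on the Fe-deficient arrays, and for that reason none is given for Ent-CPS T03, T05 and T06. The 9 profiles share their 6 arrays and were selected for 1 pattern, so these distances are a description.

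The rest of the isoprenoid genes were taken from symbol lists by step, which held 41 other genes with 85 transcripts. None of the 85 passed the thresholds in limma in either direction (lowest adjusted p = 0.150). At an unadjusted p of at most 0.05 with the same fold change, 11 were lower and 1 was higher, against 2.8% lower and 2.54% higher over the array. Taking the transcript of the highest mean for each gene, 29 genes were lower and 12 higher on the Fe-deficient arrays, and 14 of the 41 (34.1%) were lower without overlap, against 7.52% of all genes on the array. Over the 41 genes the log2 difference had a median of -0.26, or -0.31 without Fe-sufficient 1, against 0.01 and 0.04 for all genes. As the lists share the arrays of the choice, and their genes can move together, no test of a list was made.

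**Figure D3:**
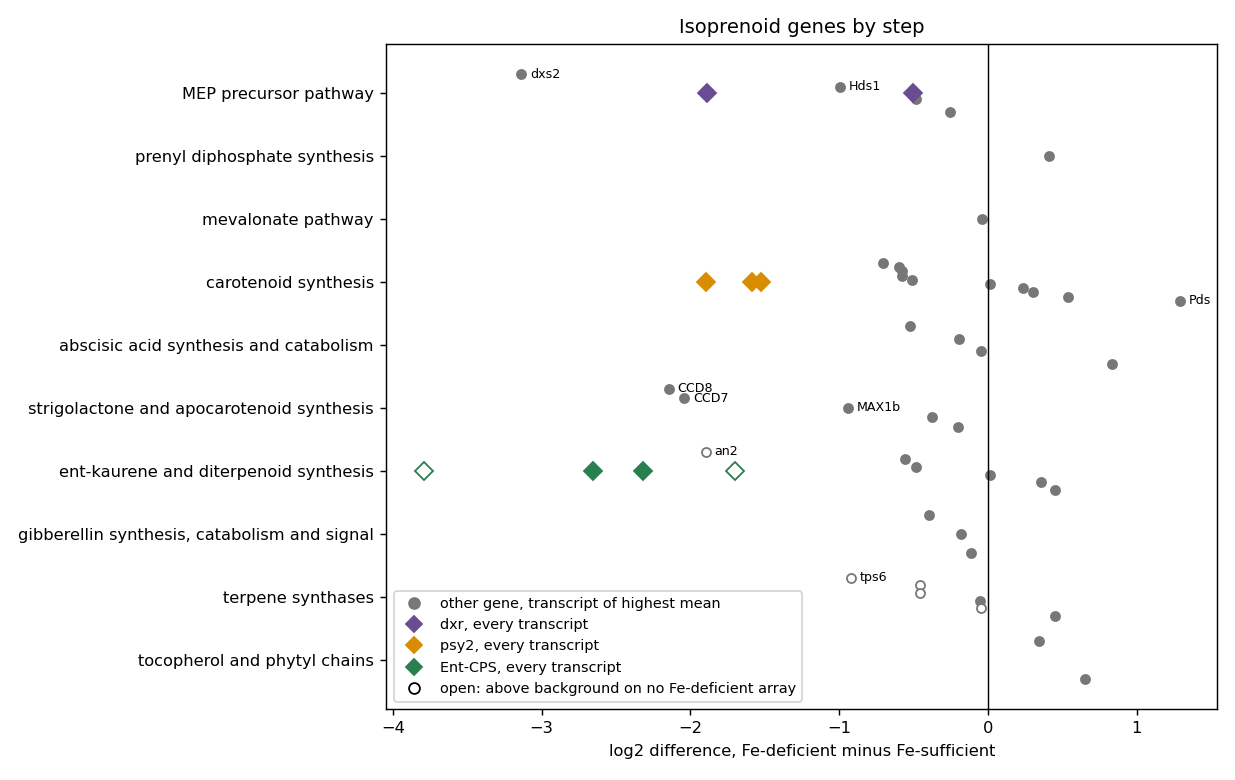
Log2 difference (horizontal axis, arrays labelled Fe-deficient minus arrays labelled Fe-sufficient) of isoprenoid genes by step (vertical axis), with grey points for other genes by their transcript of highest mean and diamonds for every transcript of dxr, psy2 and Ent-CPS, open where above background on no Fe-deficient array, so that at most a bound can be read. The 4 other matched MEP genes and all 5 matched genes of strigolactone and apocarotenoid synthesis lie below 0, and dxs2, CCD8 and CCD7 are the filled grey points with the lowest differences, between -3.14 and -2.04.

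In the MEP pathway, all 4 other genes matched by symbol were lower without overlap (median log2 difference -0.74), against 7.52% of all genes. None of them passed in limma. The list had 1 further match that was left out, and it is not the whole pathway. The DXS gene dxs2 (GRMZM2G493395), whose enzyme precedes that of dxr, was at 11.46, 9.55 and 11.16 on the Fe-deficient arrays and at 13.87, 13.75 and 13.96 on the Fe-sufficient arrays in its brighter transcript T02. Fe-deficient 2 was the lowest of the 6 by far, and the groups were wide apart. The log2 difference was -3.14 (95% interval -4.24 to -2.04, limma adjusted p = 0.150), and it passed without Fe-deficient 2 (-2.55, adjusted p = 0.0284). With any other single array left out it did not pass. Transcript T01 of dxs2 was at 7.14, 7.04 and 7.07 on the Fe-deficient arrays and at 9.01, 10.78 and 11.31 on the Fe-sufficient arrays. Fe-sufficient 1 lay between the Fe-deficient arrays and the other Fe-sufficient ones. The fitted difference of T01 (limma adjusted p = 0.227) passed without that array (adjusted p = 0.00290), where 1.56% of all transcripts passed as lower. With any other single array left out T01 did not pass. Its probe at position 1004 differed by -3.04, and that at position 105, above background on no Fe-deficient and 2 Fe-sufficient arrays, gives no fold change.

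Hds1, for the hydroxymethylbutenyl diphosphate synthase that acts after dxr, was at 9.47, 9.28 and 9.53 on the Fe-deficient arrays and at 10.52, 10.26 and 10.48 on the Fe-sufficient arrays. Its values were close within each group, with a log2 difference of -0.99 (95% interval -1.34 to -0.65, limma adjusted p = 0.150). The reductase gene lw1, for the last enzyme of the pathway, differed by -0.26 and the second DXS gene, dxs1, by -0.48 in its brightest transcript T03. In dxs1 the transcripts were split, since T02 differed by 0.31, with groups that did not overlap either (limma adjusted p = 0.533). Outside the plastid route, fps, for farnesyl diphosphate synthase, differed by 0.41 in its brighter transcript T01 (limma adjusted p = 0.467). Its transcript T02, above background on 1 Fe-sufficient array, had a fitted difference of 1.52 (limma adjusted p = 0.406). Both fps transcripts were higher without overlap. HMGR, of the cytosolic mevalonate pathway, differed by -0.04 in its brighter transcript (limma adjusted p = 0.938).

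The carotenoid genes beside psy2 were mixed, with 5 lower and 5 higher of 10 and a median log2 difference of -0.25. The 5 lower genes were all lower without overlap, against 7.52% of all genes. They were CRTISO1 and CRTISO2, for carotenoid isomerases (-0.71 and -0.57), the zeta-carotene desaturase gene vp9 in its identifier GRMZM2G454952 (-0.60), PSY1, another phytoene synthase gene (-0.58), and the phytoene desaturase gene Pds in GRMZM2G410515 (-0.51). The lowest limma adjusted p among them was 0.346, for vp9. PSY1, the other phytoene synthase gene matched, was at 10.87, 9.85 and 10.87 on the Fe-deficient arrays and at 11.31, 11.00 and 11.02 on the Fe-sufficient arrays in its brightest transcript T03, so its groups were apart by a narrow margin (limma adjusted p = 0.522). Pds and vp9 are each carried by a further identifier with a difference of the opposite sign, GRMZM5G815358 at 1.29 (adjusted p = 0.628) and GRMZM2G454928 at 0.30 (adjusted p = 0.548). Among later steps, the cyclase gene lcyE differed by 0.01 and the hydroxylase gene BCH2 by 0.54, and both overlapped.

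The strigolactone and apocarotenoid list was lower in all 5 genes, with a median log2 difference of -0.94 and 3 genes lower without overlap, against 7.52% of all genes. The carotenoid cleavage dioxygenase gene CCD8 was at 8.86, 10.35 and 9.15 on the Fe-deficient arrays and at 11.49, 11.50 and 11.81 on the Fe-sufficient arrays. The Fe-deficient values were spread but all lower, and the difference of -2.15 (95% interval -3.03 to -1.26, limma adjusted p = 0.254) passed without Fe-deficient 2 (-2.60, adjusted p = 0.0323). With any other single array left out CCD8 did not pass. CCD7, which acts before CCD8, was at 11.59, 9.49 and 11.26 on the Fe-deficient arrays and at 12.64, 12.88 and 12.94 on the Fe-sufficient arrays (difference -2.04, adjusted p = 0.392). CCD7 and dxs2 T02 had their lowest value on Fe-deficient 2, whereas CCD8 had its highest Fe-deficient value there. MAX1b, a cytochrome P450 gene of the same route, overlapped narrowly and differed by -0.94 (adjusted p = 0.480). CCD1, which cleaves carotenoids outside the plastid, differed by -0.38 and MAX1a by -0.20. The genes of abscisic acid synthesis had a median difference of -0.12 with 0 of 4 lower without overlap. Of these, vp14, for the 9-cis-epoxycarotenoid dioxygenase, was at 7.43, 10.31 and 7.94 on the Fe-deficient arrays and between 7.63 and 7.82 on the Fe-sufficient arrays, so that 1 Fe-deficient array carried its mean difference of 0.83. The aldehyde oxidase genes, whose enzymes include the last of abscisic acid synthesis, overlapped, at -0.52 for AO2 (GRMZM5G899851, limma adjusted p = 0.503) and -0.20 for AO1 (adjusted p = 0.650). The other identifier of AO2, GRMZM2G124175, differed by -0.05 and also overlapped (limma adjusted p = 0.935).

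**Figure D4:**
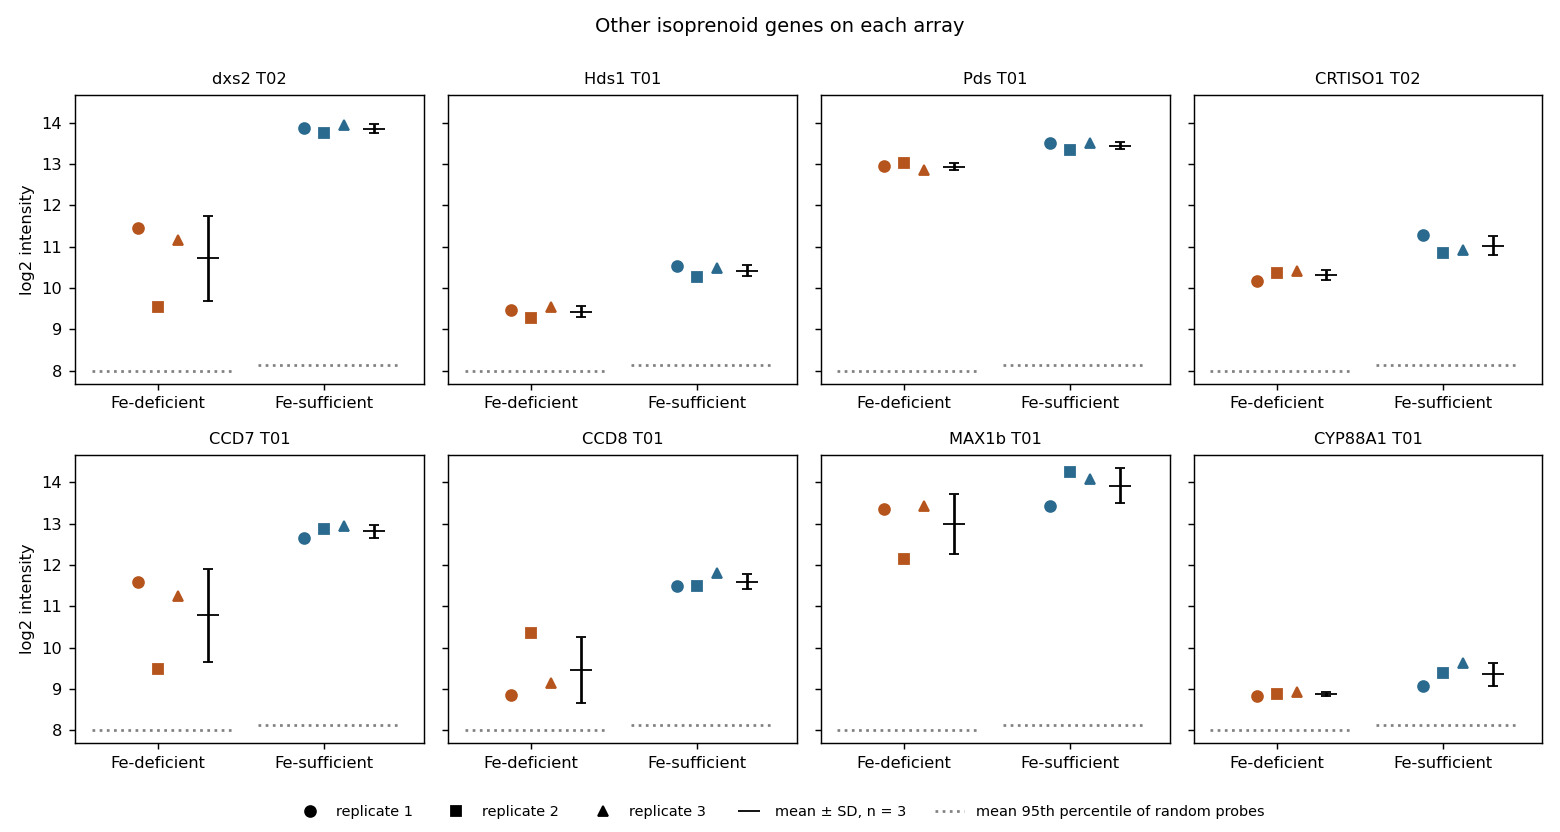
Log2 intensity (vertical axis) of 8 isoprenoid genes outside the chosen 3 on each array labelled Fe-deficient (left in each panel) and Fe-sufficient (right), with mean ± SD and the mean 95th percentile of random probes as a dotted line. The groups are apart in all panels but that of MAX1b, and Fe-deficient 2 lies far below every other point in the panels of dxs2, CCD7 and MAX1b.

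Beside Ent-CPS, the ent-kaurene and diterpenoid list was mixed, with 3 of 6 genes lower and a median log2 difference of -0.23. The gene an2 (GRMZM2G044481), a second ent-copalyl diphosphate synthase known for defence diterpenoids, was at 6.43, 7.34 and 5.91 on the Fe-deficient arrays, above background on none, and at 9.07, 9.37 and 6.93 on the Fe-sufficient arrays, above background on 2. Its groups overlapped (limma adjusted p = 0.463), and with Fe-sufficient 3 not above background it gives no fold change. The next enzyme, ent-kaurene synthase, was represented by KS, which differed by 0.45 with overlap (-0.10 without Fe-sufficient 1), and the kaurene synthase-like gene KSL4 by 0.36. Of the cytochrome P450 genes, CYP88A1, for ent-kaurenoic acid oxidase of gibberellin synthesis, differed by -0.48 and CYP71Z16, of defence diterpenoids, by -0.56, each without overlap but with limma adjusted p of 0.463 and 0.443. The further copalyl diphosphate synthase gene CPS1 was near background, at 0.02. In the gibberellin list, the synthesis gene ga3ox2 differed by -0.39 and the DELLA repressor genes D8 and d9 by -0.11 and -0.18, all with overlap. The 6 terpene synthase genes include the KS gene (GRMZM2G049538), there under the symbol tps1. By their transcript of highest mean, 3 of the 6 were above background on no array and 0 differed without overlap. Those of lowest p, tps26 and tps23, were among the 3 and get no fold change. The tocopherol genes hppd and VTE5 were at 0.65 and 0.34, both overlapping.

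Markers of other tissues were read beside these results, and genes of lignifying xylem were lower in sum on the Fe-deficient arrays. None of their 30 transcripts passed the thresholds in limma, but 11 were lower and 1 higher at an unadjusted p of at most 0.05 with the fold change, and 16 of the 30 were lower and 2 higher without overlap, against 7.65% of all transcripts as lower. By their transcript of highest mean, 6 of the 10 genes were lower and 4 higher. Their summed intensity was between 75444 and 92746 on the Fe-deficient arrays and between 106177 and 116043 on the Fe-sufficient arrays, with 8 of the 10 genes above background on all arrays and 0 on none. Without Fe-sufficient 1, 3 of the 30 transcripts passed as lower, against 1.56% of all transcripts. The sum is not read as an amount of xylem, and any part of xylem cells in the lower isoprenoid transcripts was not tested. Genes of photosynthetic tissue, where plastid isoprenoids are abundant, had summed intensities of 31072 to 44720.3 on the Fe-deficient arrays and of 23957 to 31989 on the Fe-sufficient arrays. These ranges overlapped, 0 of 29 transcripts passed (limma, with 0 lower and 2 higher at the unadjusted threshold), and 3 of 16 genes were above background on no array by the same transcript. Only 9 were above background on all arrays. Without Fe-sufficient 1, 1 of the 29 transcripts passed as higher. Most of the sum was Ppdk1 T03, at 14.95, 14.80 and 14.52 on the Fe-deficient arrays and at 14.47, 13.96 and 14.09 on the Fe-sufficient arrays. The sum is therefore not read as an amount of photosynthetic tissue. Among markers of dividing cells 0 of 39 transcripts passed, with 1 lower and 0 higher at the unadjusted threshold.

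The genes whose profile over the 6 arrays lay nearest were sought among 43202 transcripts above background on all arrays, by the same RMS distance, with 3 genes kept for each profile. Ent-CPS T01 was followed most closely by GRMZM2G123446 (distance 0.0769, log2 difference -2.36, limma adjusted p = 0.0161), then by GRMZM2G149060 (0.183, difference -2.04) and GRMZM2G000614 (0.228, difference -2.46, adjusted p = 0.0346). GRMZM2G123446 was also among the 3 nearest to psy2 T02, at 0.305, after GRMZM2G467893 (0.256) and GRMZM2G129249 (0.303). For dxr T02 the nearest were GRMZM2G040033 (0.257), GRMZM2G005419 (0.280) and GRMZM5G825515 (0.298), and for dxr T01 they were GRMZM2G174854 (0.0479), GRMZM2G018806 (0.0883) and AC204710.4_FG003 (0.0987). The RefSeq gene table gave none of these genes a symbol. For Ent-CPS T06 the search returned dxs2 T01 first, at 0.556, but on the Fe-deficient arrays the T06 profile was set by signals not above background.

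Genes beside dxr, psy2 and Ent-CPS in the order of the RefSeq annotation had smaller differences. Of 13 neighbouring genes of the array, 0 passed the thresholds in limma (1 at an unadjusted p of 0.05), and their log2 differences ran from -0.25 to 0.47, each for the transcript of highest mean. The neighbour with 0.47, near Ent-CPS, was higher without overlap (GRMZM2G035594, limma adjusted p = 0.463).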

How the data were processed

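RNA of maize roots was measured on NimbleGen arrays in 1 colour, Cy3. The deposited files hold a linear probe intensity that the authors had quantile normalized; their methods name NimbleScan and RMA, and the deposited value table is identical to the array files (largest difference 0). Any background subtraction before deposit is not stated in the sources used. Intensities were put on a log2 scale without further normalization, probes were summarised per transcript by median polish, and Fe-deficient was compared with Fe-sufficient in limma 3.58.1 (R 4.3.3; lmFit, eBayes, no covariate) with Benjamini-Hochberg adjustment over 59756 transcripts. Transcripts passed at an adjusted p no larger than 0.05 with at least a 1.5-fold change, the study's thresholds. Background was the 95th percentile of 1663 random probes per array, and the 3 arrays per group limit the precision. P-values measure the spread between pooled cultivations.

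The members and lists were chosen with earlier results of these data known. List genes were matched by symbol to a RefSeq gene table (Zm-B73-REFERENCE-NAM-5.0, names and gene order only), in which 18172 of 39219 array genes had 1 entry. PSY3 was not matched. Named were all transcripts of the 3 genes, the 2 list genes of lowest p per list and the 3 nearest profiles per transcript considered; other list genes were named after their values were seen. Tables used Python 3.11.15, pandas 2.3.3 and numpy 2.4.6. The limma step was tested on simulated data. Alternatives were other background corrections, normalizations and summaries, a filter on dim transcripts, array weights, a replicate block and each array left out. Sequences of probes, promoters and proteins were not used here.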

Additional observations from a re-analysis of the deposited data

How the results depend on the processing

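Every member transcript was lower under every alternative tried. The background correction of the RMA type moved the fitted values of dim transcripts to -2.25 for dxr T02, -2.86 for Ent-CPS T05 and -4.90 for Ent-CPS T06, which are no measured sizes because their Fe-deficient signals were mostly or wholly below background, and left 2 member transcripts past the thresholds; the mean of probes left 4, array weights 6, and cyclic loess, normexp (offset 50), the filter on dim transcripts and median scaling 5 each. Left-out arrays moved the difference of dxr T01 between -0.72 and -0.27 and the fitted one of Ent-CPS T03 between -3.22 and -2.16. The gap of Ent-CPS T03 to T01 ran from -0.764 without Fe-sufficient 1 to 0.0404, a turned sign, without Fe-sufficient 3, again on dim signals. Over all transcripts, 51 passed; 28 did so with the RMA-type correction, 165 with array weights, and between 2 (without Fe-deficient 1) and 1096 (without Fe-sufficient 1) with 1 array left out, the others being 22 and 21 without Fe-deficient 2 and 3 and 3 and 6 without Fe-sufficient 2 and 3. Of the pathway transcripts, 0 passed as lower, 4 did with array weights (Hds1, CCD8 and the dxs2 transcripts), and 0 to 2 with 1 array left out, namely 2 without Fe-deficient 2 and 1 without Fe-sufficient 1. With replicate numbers fitted as a block, 0 passed, against 51 without (3523 against 3190 at the unadjusted threshold), and of the members 0 against 5. The sources used do not state that a replicate number marks a cultivation shared by both groups, and the deviations of same-numbered arrays correlated at -0.12, -0.01 and 0.09. The causes of these changes were not tested.

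The limits are those of 3 arrays per group, of probes near background in dxr T02 and in Ent-CPS T03, T05 and T06, of isoforms with shared exons, and of labels that iron genes did not bear out on every array.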
